A study of Homo sapiens with 33 samples.

Results

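Splicing factor and RNA helicase genes were followed through an array series on 2 human cell lines. The members were the spots whose platform annotation gave exactly 1 gene symbol and whose symbol starts with SRSF, HNRNP, SF3A, SF3B, SNRP, PRPF, DDX or DHX, with DDX3Y left out. They came to 134 of the 34560 spots and to 82 of the 10726 genes that have a spot of their own. By family, the spots were 19 for SRSF, 30 for HNRNP, 3 for SF3A, 7 for SF3B, 6 for SNRP, 17 for PRPF, 31 for DDX and 21 for DHX. Of the 82 genes, 79 are protein-coding, and DDX11L2 (a pseudogene), DDX19A-DT and DHX9-AS1 are not.

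Pre-mRNA splicing is carried out by the spliceosome, which assembles from small nuclear ribonucleoproteins on each intron. SNRP genes encode proteins of these particles, SF3A and SF3B genes the U2 particle's complexes at the branch point, and PRPF genes many proteins of the tri-snRNP and the catalytic core. SRSF proteins (SR proteins) mostly promote the use of nearby splice sites, HNRNP proteins coat nascent transcripts and often work against it, and DDX and DHX genes encode helicases that remodel RNA and its complexes in splicing, ribosome assembly, export, translation and decay.

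The cells were THP-1, a monocytic leukaemia line, and CaCo-2, an epithelial line from a colon carcinoma, each left unstimulated or given the cytokine TNF-alpha at 5 ng/ml for 60 min. RNA was labelled with 33P and hybridised to nylon membranes of cDNA spots. Columns that repeat the readings of another column were counted once. The 1 such pair labelled CaCo-2 control on one column and CaCo-2 TNF on the other was left out. This left 22 arrays of 33 columns: 5 of unstimulated and 7 of TNF-treated THP-1 cells, and 5 of CaCo-2 cells in each condition. No label states that arrays of a group came from separate cultures, so every p-value here reflects array-to-array spread alone, and that spread may be technical. Each line stands for its tissue as 1 line only, so a difference between CaCo-2 and THP-1 is one between these lines, and in such bulk RNA fewer expressing cells and less RNA per cell cannot be told apart.

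Levels are given as log2 of the intensity after quantile normalization, so that 1 unit is a doubling, and readings of exactly 0 were treated as missing. A level depends on the spot as well as on the transcript, so spots were compared only with themselves across groups. A spot counted as changed where the adjusted p (limma, Benjamini-Hochberg over all spots tested) was under 0.05. Exact zeros took up between 32.02% and 39.58% of all spots per array. Of the 25 epithelial marker genes searched for, 5 had spots and VIL1 (villin) and 1 of the spots of CLDN4 (claudin 4) were higher in CaCo-2, by 0.09 and 0.11. The other CLDN4 spot and 1 spot of CDH17 (liver-intestine cadherin) had values of -0.09 and -0.07 without a call. Of the pair of ELF3 spots, an epithelial transcription factor, 1 was above 0 on 5 of 5 THP-1 control arrays and 0 of 5 CaCo-2 control arrays, and the other the reverse. Of the 25 monocyte markers, 7 had spots. CD4 spot 62B12 was at 0.20, higher in CaCo-2, and its spot 95B19 at -0.02, both without a call. Of the 4 spots of LST1, 1 was lower in CaCo-2 with a difference of -0.07 and the other tested one was at 0.03 without a call. LAPTM5 was at 0 on all 5 CaCo-2 control arrays, but PTPRC, a leukocyte gene, was above 0 on 5 of 5 CaCo-2 control arrays and 4 of 5 CaCo-2 TNF arrays. The summed monocyte signal ran from 4.03 to 4.87 on THP-1 control arrays and from 2.56 to 3.28 on CaCo-2 control arrays, but under TNF the lines overlapped, at 3.52 to 4.64 and 2.50 to 4.11. The summed epithelial signal overlapped on control arrays (2.37 to 2.83 and 2.11 to 2.78) and under TNF (2.26 to 2.65 and 2.05 to 2.69). Of 9 fibroblast markers 6 had spots, and FN1 spot 55P08 was higher in CaCo-2 by 0.36 (adjusted p 0.0154, limma). Of 9 lymphocyte markers only CD79B had a spot, and it was not called.

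Promoters of 4 genes whose values are described below are shown first, since 2 of them are the genes with the largest line differences among the called spots (DHX34, HNRNPDL), 1 the gene with the smallest p on the THP-1 side (DHX16) and 1 the gene read above 0 on most THP-1 arrays and on no CaCo-2 array (SRSF5). Each is the run of 250 bases before the outermost start listed for the gene in RefSeq on GRCh38.p14, 5′ to 3′ on the gene's strand, at chr19:47349065-47349314 (plus strand, DHX34), chr4:82430463-82430712 (minus strand, HNRNPDL), chr6:30673007-30673256 (minus strand, DHX16) and chr14:69766892-69767141 (plus strand, SRSF5). Capitals mark matches, on either strand, to the TATA box (TATAAA), the CCAAT box, the GC box (GGGCGG) and the ETS core (CCGGAAG). They also mark matches to a simplified kappaB pattern, which is GGGA, then any 4 bases, then CC.
DHX34: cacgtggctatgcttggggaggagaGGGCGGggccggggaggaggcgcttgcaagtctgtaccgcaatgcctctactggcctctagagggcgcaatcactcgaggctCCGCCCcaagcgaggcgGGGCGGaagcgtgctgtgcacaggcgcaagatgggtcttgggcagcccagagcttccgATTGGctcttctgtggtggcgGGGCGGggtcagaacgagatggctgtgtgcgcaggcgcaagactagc
HNRNPDL: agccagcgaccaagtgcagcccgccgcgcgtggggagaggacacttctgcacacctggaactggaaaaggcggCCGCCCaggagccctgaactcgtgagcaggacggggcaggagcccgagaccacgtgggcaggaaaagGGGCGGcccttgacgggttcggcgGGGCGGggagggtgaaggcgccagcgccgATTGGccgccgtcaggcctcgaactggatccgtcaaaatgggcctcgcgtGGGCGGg
DHX16: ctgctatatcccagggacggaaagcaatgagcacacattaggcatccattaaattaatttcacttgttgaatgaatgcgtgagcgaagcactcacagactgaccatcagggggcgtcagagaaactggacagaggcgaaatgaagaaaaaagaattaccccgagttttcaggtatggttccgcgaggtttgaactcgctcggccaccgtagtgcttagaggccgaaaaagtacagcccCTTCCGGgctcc
SRSF5: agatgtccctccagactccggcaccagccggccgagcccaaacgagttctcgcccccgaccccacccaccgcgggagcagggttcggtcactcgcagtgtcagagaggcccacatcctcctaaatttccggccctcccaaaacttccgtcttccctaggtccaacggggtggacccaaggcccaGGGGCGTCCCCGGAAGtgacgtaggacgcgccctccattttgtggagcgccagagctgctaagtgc

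The DHX34 run holds 4 GC boxes and 1 CCAAT box, and so does the HNRNPDL run. DHX16 has a single ETS core, and SRSF5 an ETS core that overlaps by its first base with a kappaB match. RefSeq sequences were found for 75 of the 82 genes, 73 of them protein-coding. The ETS core was present in 26 of these 73 promoters (35.6%) and in 11.7% of 15842 coding promoters of the same length. The CCAAT box was in 46.6% against 34.5%, and the GC box in 58.9% against 55.8%. The simplified kappaB pattern was in 24.7% against 25.6%, and the TATA box in 4.11% against 9.35%. These are counts of letters in a window, with no test, and a match is not a site of binding.

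Reading the members on the membrane came first. Above 0 on all 22 arrays were 37 of the 134 spots (27.6%), against 19.2% of all spots. At 0 on all of them were 2 (1.49%), against 1.09% of all spots. These were the spot of DHX58, which encodes a RIG-I-like receptor of the antiviral response, and 1 of the spots of SRSF3, an SR protein. The other SRSF3 spot (48J20) was above 0 on every array. The share of member spots above 0 on all arrays of a group was 53.0% in unstimulated and 47.8% in TNF-treated THP-1 cells, and 41.8% and 38.1% in CaCo-2 cells, and over all spots it was 41.3%, 33.6%, 32.8% and 30.9%. An exact 0 need not mean an absent transcript. On the 9 arrays that also have a summed column, 141 of the 284 zero readings of members (49.6%) had a value above 0 there, against 40.8% over all spots. For DHX58 the summed columns of CaCo-2 control arrays 1 and 2 and THP-1 control array 2 held 0.121, 0.128 and 0.106. The SRSF3 spot was at 0 in every summed column.

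SRSF5, an SR protein that binds purine-rich exonic enhancers, was the member whose readings split by cell line. Its only spot (03M16) read -2.80, -2.74, -2.74, -2.78 and -2.73 on the 5 THP-1 control arrays. On the THP-1 TNF arrays 6 of 7 were above 0, from -2.81 through a median of -2.77 to -2.72, and array 8 was at 0. All 5 CaCo-2 control and all 5 CaCo-2 TNF arrays were at 0. SRSF5 was thus above 0 on 11 of 12 THP-1 arrays and on 0 of 10 CaCo-2 arrays, with no overlap between the unstimulated groups.

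The pattern of 0 on every unstimulated CaCo-2 array and a value on every unstimulated THP-1 array was met by 47 of all spots (0.136%), and SRSF5 was the 1 member among the 134. The opposite pattern, met by 0.231% of all spots, was shown by 0 members. SRSF5 could not enter the line fits with zeros missing. The p-values below, with zeros raised, come from the same zeros as the pattern and are no separate support for it. With zeros raised to the lowest positive value of each array, its adjusted p (limma) was 6.24e-06 in unstimulated cells, 0.0414 under TNF and 8.59e-06 over both, in fits that called 0.449%, 1.25% and 4.42% of all spots and in which a group set to the floor has hardly any spread of its own. The spot was dim: its deposited intensities above 0 lay between 0.143 and 0.16, and the lowest positive values of the CaCo-2 arrays between 0.0921 and 0.136. The summed columns hold values some 3 times as high as the single ones. In them, CaCo-2 TNF arrays 1 and 5 held 0.129 and 0.124 for SRSF5 and CaCo-2 control arrays 1 to 4 held 0. No fold change is given against a group listed at 0.

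The comparison of CaCo-2 with THP-1 over both conditions asks how the lines differ in this machinery whatever the treatment. It called 9 of 85 member spots (10.6%), of 60 genes tested, where 9.92% of all 16931 spots tested were called, so the members' share was near that of the array as a whole. In CaCo-2, 7 were higher (8.24%, 5.58% of all spots) and 2 lower (2.35%, 4.34% of all spots). The median difference was 0.02 over the members and 0.01 over all spots. The 49 other spots could not be tested because fewer than 3 arrays of some group were above 0, which left 22 genes without a tested spot. The called differences were small, from -0.12 to 0.31 on the log2 scale.

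**Figure D1:**
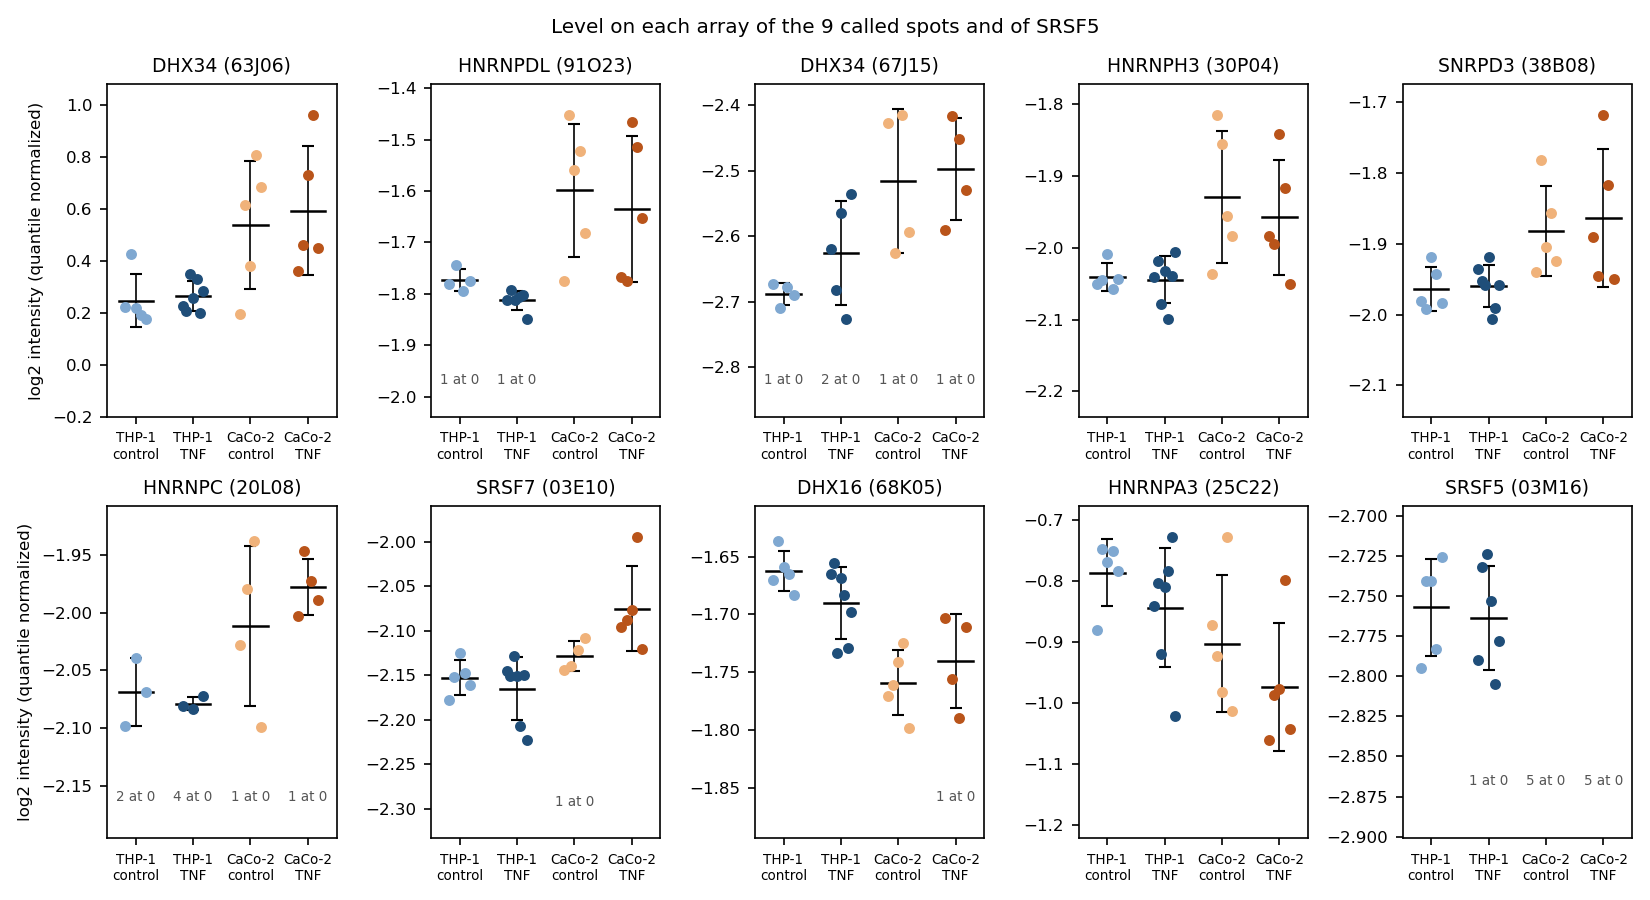
Log2 intensity (quantile normalized) on each array of the 9 called spots and of SRSF5, in the 4 groups; points are arrays, bars are mean ± SD, grey text counts arrays at 0, and each panel has its own scale. CaCo-2 points of DHX34 spot 63J06 run from 0.20 to 0.96, THP-1 points from 0.18 to 0.43, and SRSF5 has points in the THP-1 groups only.

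Among the helicases, DHX34, which takes part in nonsense-mediated decay, was higher in CaCo-2 at both of its spots. Spot 63J06 read 0.22, 0.43, 0.22, 0.19 and 0.18 on the THP-1 control arrays and 0.20, 0.61, 0.38, 0.81 and 0.69 on the CaCo-2 control arrays. After TNF the THP-1 arrays ran from 0.20 through a median of 0.26 to 0.35, and the CaCo-2 arrays read 0.36, 0.46, 0.73, 0.96 and 0.45. The CaCo-2 control values of 0.20 and 0.38 lay within the THP-1 control range, and the TNF groups did not overlap. Of the 10 CaCo-2 arrays, 7 were above every THP-1 array. The line difference at this spot was 0.31 (SE 0.07, a ratio of 1.24, adjusted p 0.00969, limma). The call stood in all 38 alternatives run, with differences from 0.22 to 0.41.

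The dimmer DHX34 spot, 67J15, was above 0 on 17 of the 22 arrays. It read -2.67, -2.71, -2.68 and -2.69 on 4 THP-1 control arrays and -2.43, -2.62, -2.42 and -2.59 on 4 CaCo-2 control arrays, which did not overlap. After TNF, 5 THP-1 arrays lay between -2.73 and -2.54 and 4 CaCo-2 arrays between -2.59 and -2.42, which did. The difference was 0.15 (SE 0.03, adjusted p 0.0141, limma), and it turned to -0.044 when the summed columns replaced the single ones. DHX16, the helicase that activates the spliceosome before its first catalytic step, was lower in CaCo-2. Its spot 68K05 read -1.67, -1.64, -1.66, -1.67 and -1.68 on THP-1 control arrays and -1.77, -1.76, -1.74, -1.73 and -1.80 on CaCo-2 control arrays, without overlap. With TNF the THP-1 range of -1.73 to -1.66 overlapped with the CaCo-2 range of -1.79 to -1.70. DHX16 differed by -0.07 (SE 0.02, adjusted p 0.00781, limma) and by 0.053 in the opposite direction with summed columns.

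The remaining 8 of the 11 DHX spots tested gave no call. Of the 18 DDX spots tested 0 were called, with differences from -0.002 to 0.15, and the DDX spot with the smallest p was 15E21 of DDX3X, a helicase of translation initiation, at 0.05 (adjusted p 0.169, limma). The spot with the difference of 0.15 was 27D17 of DDX54, a nucleolar helicase, and it rested on 1 array: THP-1 control array 3 read -3.13 and the other 4 arrays of that group between -2.12 and -2.09. That array is the one whose only column is a sum, divided here by 3. Without it the DDX54 difference was 0.05 (SE 0.02) and passed (adjusted p 0.0464, limma).

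Among the hnRNP genes, 3 of 24 tested spots were higher and 1 lower in CaCo-2 than in THP-1. HNRNPDL, which binds AU-rich RNA, read -1.78, -1.74, -1.79 and -1.78 at spot 91O23 on 4 THP-1 control arrays. The CaCo-2 control arrays read -1.78, -1.45, -1.56, -1.52 and -1.68. In the TNF groups, 6 THP-1 arrays lay between -1.85 and -1.79, below the CaCo-2 values of -1.77, -1.78, -1.46, -1.51 and -1.65. Array 1 of the CaCo-2 controls was as low as THP-1, and the TNF groups did not overlap. Of the 10 CaCo-2 arrays, 7 were above every THP-1 array. The HNRNPDL difference was 0.18 (SE 0.04, a ratio of 1.13, adjusted p 0.0112, limma).

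HNRNPH3, of the hnRNP H family that binds runs of G, read -2.05, -2.04, -2.01, -2.06 and -2.04 at spot 30P04 in THP-1 control cells. CaCo-2 control cells gave -2.04, -1.81, -1.85, -1.96 and -1.98. After TNF, THP-1 arrays ran from -2.10 through -2.04 to -2.01 and CaCo-2 arrays read -1.98, -1.99, -1.84, -1.92 and -2.05. HNRNPH3 was above every THP-1 array on 8 of the 10 CaCo-2 arrays, with a difference of 0.10 (SE 0.03, adjusted p 0.0172, limma). HNRNPC, which binds U tracts, was above 0 on only 14 of 22 arrays at spot 20L08. It was higher in CaCo-2 by 0.08 (SE 0.02, adjusted p 0.0462, limma), and in the 16 fits without 1 array that could still test the spot the call was lost in 8, with adjusted p up to 0.081.

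HNRNPA3, an hnRNP A/B protein, was lower in CaCo-2 at spot 25C22. THP-1 control arrays read -0.88, -0.75, -0.77, -0.75 and -0.78, and CaCo-2 control arrays -0.87, -0.92, -0.98, -0.73 and -1.01. The TNF ranges, -1.02 to -0.73 in THP-1 and -1.06 to -0.80 in CaCo-2, overlapped as well. The difference of -0.12 (SE 0.04, adjusted p 0.0483, limma) lost its call when any of 17 single arrays was left out, with adjusted p up to 0.0847.

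Of the core particle (SNRP) and SR protein genes, 1 spot each was higher in CaCo-2. SNRPD3, a protein of the Sm ring around snRNAs, read -1.98, -1.99, -1.92, -1.94 and -1.98 at spot 38B08 in THP-1 control cells and -1.94, -1.78, -1.90, -1.86 and -1.92 in CaCo-2 control cells. After TNF the ranges were -2.01 to -1.92 and -1.95 to -1.72. The SNRPD3 groups overlapped in both conditions, and the difference was 0.09 (SE 0.02, adjusted p 0.0269, limma). It was not called without CaCo-2 control array 2 (adjusted p 0.0533). SRSF7, an SR protein with a zinc knuckle, was higher in CaCo-2 by 0.06 at spot 03E10 (SE 0.02, adjusted p 0.0282, limma). This spot read from -2.18 to -2.13 on THP-1 control and from -2.14 to -2.11 on 4 CaCo-2 control arrays, and from -2.22 to -2.13 and from -2.12 to -1.99 with TNF, where the groups did not overlap. It reached adjusted p 0.0526 without CaCo-2 control array 5, and its sign turned when zeros were raised to the floor (-0.042) or the gene's spots were averaged (-0.016).

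The spots of the PRPF, SF3A and SF3B families gave 0 calls among 9, 2 and 6 tested. Their smallest p-values belonged to PRPF4, of the U4/U6 particle, at -0.07 (spot 87I04, adjusted p 0.12, limma), to SF3A1, of the U2 particle, at 0.005 (spot 11P01, adjusted p 0.891, limma), and to SF3B6, which touches the branch point adenosine, at 0.04 (spot 39L23, adjusted p 0.113, limma). PRPF19, a ubiquitin ligase of the catalytic spliceosome, had the lowest value of all members, -0.18 (SE 0.07, adjusted p 0.123, limma). SNRPN, an imprinted Sm protein gene, came to -0.10 (SE 0.03, adjusted p 0.0817, limma) and was called at -0.06 (adjusted p 0.0455, limma) where THP-1 control array 3 was left out.

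The CaCo-2 arrays varied more than the THP-1 arrays at these spots. Median SDs were 0.0558 and 0.0497 in CaCo-2 control and TNF and 0.0347 and 0.0389 in THP-1 control and TNF. Over all 16931 spots tested the order was the same, at 0.0523 and 0.0498 in CaCo-2 and 0.0432 and 0.0445 in THP-1. CaCo-2 control array 1 and TNF arrays 1 and 2 also had the highest medians of deposited positive values, from 0.228 to 0.23, against 0.162 to 0.192 on the other CaCo-2 arrays. Without these 3 arrays, 14 of 62 tested member spots were called where 21.4% of all spots were, and the DHX34 (63J06) and HNRNPDL differences came to 0.41 and 0.25. With the summed columns in place of the single ones, 1 member spot was called, DHX34 63J06, where 1.60% of all spots were.

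The line difference was also taken in each condition alone, which shares no array between the 2 tests. In unstimulated cells 0 of 95 member spots were called where 0.108% of all spots were, and 14 had an unadjusted p under 0.05 (14.7%, 13.4% of all spots). Under TNF 0 of 98 were called where 0.646% were, with 18 at an unadjusted p under 0.05 (18.4%, 17.3% of all spots). With array quality weights 5 and 6 members passed, where 2.27% and 4.49% of all spots did. Of the 85 spots in both tests, 58 had the same sign (68.2%, 71.8% of all spots), and of the 14 with an unadjusted p under 0.05 in unstimulated cells, 13 did (92.9%, 92.8% of all spots). The differences in unstimulated and TNF arrays were 0.29 and 0.33 for DHX34 63J06, 0.17 and 0.18 for HNRNPDL, 0.11 and 0.09 for HNRNPH3 and -0.10 and -0.05 for DHX16. Spots called over both conditions were picked on the mean of these same 2 differences. Their shared sign is therefore no separate support for the calls. PRPF19 gave -0.07 and -0.28, each without a call. The exception among the 14 was SNRPD2 spot 29L24, at 0.07 (unadjusted p 0.00251, limma) and -0.007. SRSF7 03E10 gave 0.02 and 0.09, and SNRPN spot 47G13, with the smallest member p under TNF, -0.10 and -0.09.

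**Figure D2:**
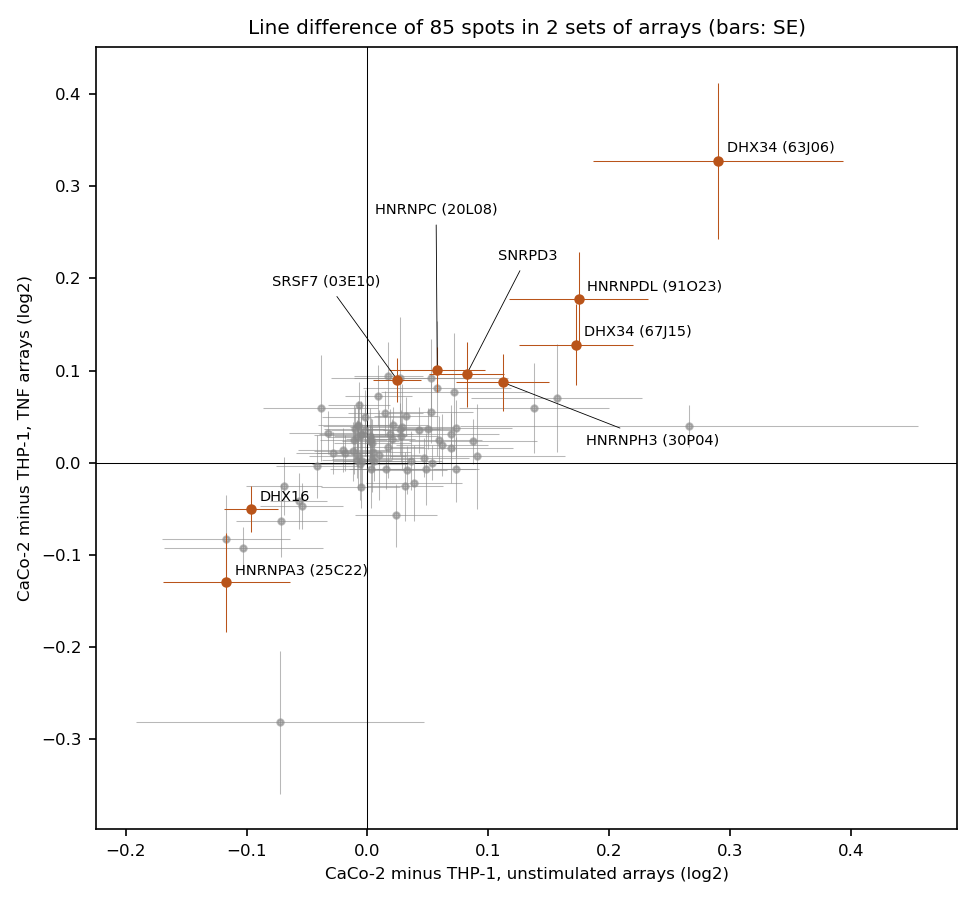
Difference between CaCo-2 and THP-1 (log2, bars are SE) of 85 member spots in unstimulated arrays (x axis) and in TNF arrays (y axis). The 9 spots in orange were called on the mean of both differences. DHX34 spot 63J06 stands at 0.29 and 0.33 at the upper right, HNRNPA3 and DHX16 lie at the lower left, and most other points gather around 0, with PRPF19 apart at -0.07 and -0.28.

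Genes with several spots allowed a reading to be compared between spots. Of the 82 genes 33 had more than 1 spot (85 spots), 13 had 3 or more, and HNRNPA3 had 5, while SRSF5 had only 1. In 24 pairs of 18 genes the line difference of the brightest spot could be tested against that of another spot, within arrays. The line differences had the same sign in 16 of 24 pairs (66.7%), against 55.1% of 1818 pairs over all genes. Among the member spots tested, 65 differences were above 0 and 20 below, so member spots of unlike genes would often share a sign too. Of the pairs, 3 differed (12.5%), against 11.6% of all pairs. The spot sequences were not used here, so whether such spots read the same exons or a near-identical gene was not tested.

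The spots of SRSF7 had line differences of opposite sign. Its brightest spot, 11C01, lay between -0.45 and -0.19 on THP-1 control arrays and between -0.51 and -0.33 on CaCo-2 control arrays, which overlapped. The line difference was -0.10 there and 0.06 at 03E10, and the gap of -0.15 between them passed (SE 0.04, adjusted p 0.0103, limma over pairs). The -0.10 itself did not pass (adjusted p 0.0752, limma). The third SRSF7 spot, 87G12, was above 0 on 4 of 5 CaCo-2 control arrays and on 0 of 5 CaCo-2 TNF arrays, and could not be tested. In the summed columns, CaCo-2 TNF array 1 held 0.155 for it and array 5 held 0. A change after TNF can therefore not be read from these zeros.

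Such a gap uses only the arrays on which both spots were above 0, so it can differ from the gap between the values of the 2 spots. The line difference of DHX34 was 0.23 higher at the brighter spot on those arrays (SE 0.06, adjusted p 0.0218, limma over pairs). HNRNPA3 differed between spots 32C12 and 25C22 by 0.14 (SE 0.04, adjusted p 0.0218, limma over pairs), the first at 0.01 and the second at -0.12. Its spots 41A14 and 85L14 were at -0.05 and 0.03, and the fifth was not tested. For HNRNPDL the second spot, 83A12, showed a difference of -0.0002 beside the 0.18 of 91O23, a gap of 0.17 that missed the threshold (SE 0.05, adjusted p 0.0574, limma over pairs). HNRNPH3 gave 0.06 at its other spot, 54L02, beside 0.10.

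**Figure D3:**
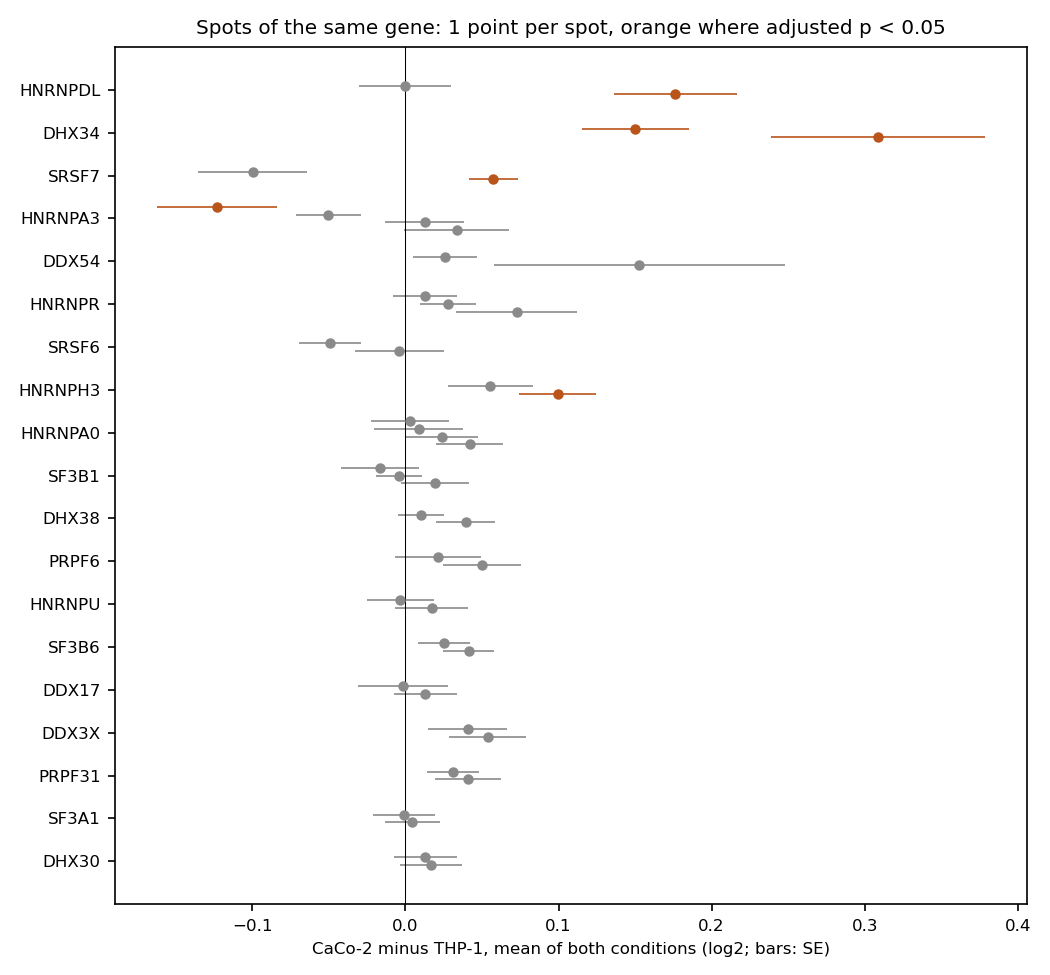
Difference between CaCo-2 and THP-1 over both conditions (log2, bars are SE) for the 44 spots of the 19 genes with at least 2 tested spots, 1 point per spot, orange where called. The points of DHX34 lie at 0.15 and 0.31, those of SRSF7 on both sides of 0 at -0.10 and 0.06, and those of SF3A1 and DHX30 nearly coincide.

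Of the remaining genes with 3 or more spots, HNRNPA0 had 4 tested spots between 0.003 and 0.04, SF3B1, the branch point subunit often mutated in blood cancers, 3 between -0.02 and 0.02, and HNRNPR 3 between 0.01 and 0.07. HNRNPU (-0.003 and 0.02), PRPF6 (0.02 and 0.05) and DHX30 (0.01 and 0.02) had 2 each. SRSF1, SRSF10, PRPF38B, DHX29 and DDX59 had 1 tested spot each, at 0.03, 0.04, -0.003, 0.06 and 0.02, so their spots could not be compared. None of the spots in this group of genes was called.

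TNF for 60 min called 0 of 94 member spots in CaCo-2, where 0% of 19479 spots were called, and 0 of 106 in THP-1, where 0% of 21989 were. Raising zeros to the floor kept the members at 0 of 134 in each line, where 0.0434% and 0.0145% of spots were called. At an unadjusted p under 0.05 there were 2 members in CaCo-2 (2.13%, 2.71% of all spots) and 3 in THP-1 (2.83%, 3.54% of all spots). The differences ran from -0.12 to 0.08 in CaCo-2, with a median SE of 0.04, and from -0.08 to 0.23 in THP-1, with a median SE of 0.02. A missed threshold does not show that the transcripts were unaffected.

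The 2 CaCo-2 spots with the smallest p were of the tri-snRNP proteins PRPF31 and PRPF6. PRPF31 spot 83K10 read -3.05, -3.08, -2.98, -3.06 and -3.03 on control arrays and -3.004, -2.98, -2.89 and -2.97 on 4 TNF arrays, with a difference of 0.08 (SE 0.03, adjusted p 1, limma). PRPF6 spot 06J24 read -0.54, -0.51, -0.61, -0.46 and -0.53 on control and -0.71, -0.60, -0.62, -0.60 and -0.59 on TNF arrays, a difference of -0.09 (SE 0.04, adjusted p 1, limma). The groups overlapped for both. The other PRPF31 spot, 27F06, gave 0.01 and PRPF6 spot 24P02 gave -0.04, also without a call. Spot 83K10 is among the dimmest of the tested member spots. DDX21, a nucleolar helicase, and SRSF7 (03E10) followed at -0.06 and 0.05.

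In THP-1 the smallest p belonged to DHX29, a helicase that helps the small ribosomal subunit scan structured leaders. Its spot 94K09 read -2.42, -2.45, -2.39, -2.53 and -2.43 on control arrays and between -2.59 and -2.49, with a median of -2.52, on 6 TNF arrays. DHX29 was lower after TNF by a difference of -0.08 (SE 0.02, unadjusted p 0.00526, adjusted p 0.931, limma), with 1 control array inside the TNF range. The 0.23 of DDX54 spot 27D17 had an SE of 0.15 and rested on control array 3, and was 0.02 without it.

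**Figure D4:**
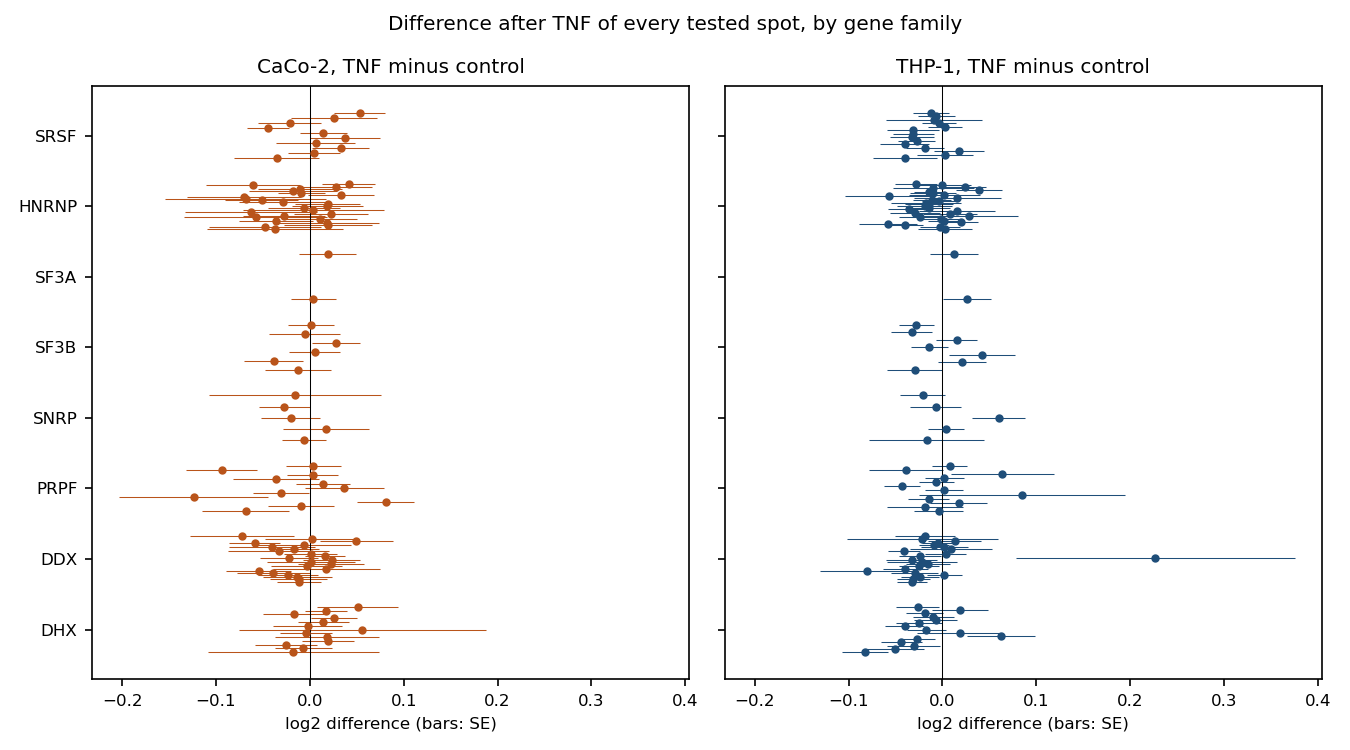
Difference between TNF and control arrays (log2, bars are SE) of every tested member spot by gene family, 94 spots in CaCo-2 (left) and 106 in THP-1 (right). The points lie between -0.12 and 0.08 in CaCo-2 and between -0.08 and 0.23 in THP-1, where DDX54 is the single point beyond 0.1.

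The difference of the TNF effects between the lines called 0 of 85 member spots, where 0% of 16931 were called, and 0 members and 3.22% of all spots had an unadjusted p under 0.05. The smallest p was that of SRSF7 spot 03E10, at 0.07 (SE 0.03, adjusted p 1, limma), from 0.05 in CaCo-2 and -0.01 in THP-1.

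Other genes of splicing and RNA unwinding were taken from lists that hold none of the families above. Of other spliceosome genes, 4 of 46 tested spots were called between the lines over both conditions (8.70%, where 9.92% of all spots were): LUC7L, of the U1 particle, at 0.35, 2 spots of CWC15, of the catalytic spliceosome, at 0.06 and 0.12, and RNPC3, of the minor spliceosome, at -0.16. Of other splicing regulators 5 of 63 were called (7.94%): 2 spots of MBNL1, a muscleblind protein, at -0.14 and -0.13, KHSRP at -0.08, RBFOX2 at 0.09 and EWSR1 at 0.10. Of other RNA helicases 0 of 12 were called. MBNL1 was also called in unstimulated cells (spot 70B17, -0.17, adjusted p 0.0456, limma) and under TNF (spot 19B16, -0.14, adjusted p 0.0434, limma). KHSRP, an RNA-binding regulator, was also called under TNF (spot 41N20, -0.12, adjusted p 0.0189, limma). In unstimulated cells the called spots were 1 of 69 tested spots of these splicing regulators (1.45%, 0.108% of all spots). Under TNF they were 2 of 82 (2.44%, 0.646% of all spots), and no spot was called in both. After TNF these lists gave 0 calls in either line.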

How the data were processed

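Each deposited value is a linear intensity of 1 spot, judged from the numbers themselves. The sources used here do not state how the authors quantified images, subtracted background and scaled arrays. There are 33 columns, and 11 of them hold values some 3 times as high as the rest. Of these, 10 pair with a single column of the same readings, and 9 pairs were counted once through it. The other pair stands under opposite labels and was left out. THP-1 control array 3 is a summed column without a partner and was divided by 3. Codes below 0 and exact zeros were treated as missing, and log2 values were quantile normalized.

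Spots with at least 3 measured arrays in each group were fitted with limma (version 3.58.1, R 4.3.3; lmFit and eBayes with a variance trend, two-sided), adjusted by Benjamini-Hochberg over all spots tested, threshold 0.05. The fits within a line or condition used only the groups compared, and the mean line comparison, the difference of TNF effects and the tests between spots of 1 gene used all 4. Gene symbols came from the platform annotation, which named 1 gene at 18025 spots, several at 858 and none at 15677. Spots with several symbols were left out, 16 of them holding a member's prefix. Promoters came from RefSeq.

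The members and gene lists were chosen with earlier results of these data known. Spots were named where they were called, had 1 of the 3 smallest p-values per direction in a comparison or the smallest of their family, belonged to a gene with 3 or more spots, or were at 0 throughout 1 group. Only the leading ones of these are described singly. The fit was tested on simulated data: with equal spread in the groups false calls kept to the nominal rate, and with each group's own spread they exceeded it. Alternatives covered zeros, normalization, filters, weights, columns, blocks and left-out arrays. The number of arrays limits the precision.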

Additional observations from a re-analysis of the deposited data

Results flagged for a closer look

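In groups of 4 to 10 arrays, 40 sets of values were searched for an array that stood apart from the rest, and 4 were found where chance gives about 2. HNRNPA3 spot 25C22 read -0.88 on THP-1 control array 1, against -0.784 to -0.748 on the other arrays of the group. HNRNPH3 spot 30P04 read -2.01 on THP-1 control array 3, against -2.06 to -2.04. DHX34 spot 63J06 read 0.426 on THP-1 control array 2, against 0.177 to 0.222. HNRNPDL spot 91O23 read -1.85 on THP-1 TNF array 8, against -1.81 to -1.79. The calls of DHX34, HNRNPH3 and HNRNPDL stood without these arrays, and that of HNRNPA3 stood without its own.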

How the results depend on the processing

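After TNF in either line, and for the difference of the TNF effects, 0 members were called in all alternatives run. For the line difference over both conditions the 9 calls became 4 with zeros raised to the floor (SRSF5 among them) and 4 with only spots above 0 on every array, 1 without normalization, 1 with summed columns divided by 3, 1 with the mean of both columns, 16 with array quality weights and 14 without the 3 CaCo-2 arrays of highest median, and ranged from 6 to 11 when 1 array was left out. In unstimulated cells the 0 calls became 1 with the floor, 5 with array weights and 2 without those 3 arrays, and 0 to 2 with 1 array left out (2 without CaCo-2 control array 1). Under TNF they became 1 with the floor, 2 without normalization, 2 with array medians subtracted, 6 with array weights, 1 with all 4 groups fitted together, 2 with the oppositely labelled pair kept and 4 without those 3 arrays, and 0 to 2 with 1 array left out (2 without THP-1 TNF array 8 or CaCo-2 TNF array 1, 1 without THP-1 TNF array 5). The 3 called pairs became 0 with the floor, 0 with summed columns, 0 with the mean of both columns and 1 with only spots above 0 on every array, and 3 to 4 with 1 array left out. Fewer spots tested is part of the change where spots at 0 were dropped, and otherwise the cause was not tested.

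Direction reversed for SRSF7 03E10 with the floor (-0.042) and as a mean of the gene's spots (-0.016), for DHX34 67J15 with summed columns (-0.044) and the mean of both columns (-0.025), and for DHX16 with the same settings (0.053 and 0.040). Replicate numbers did not pair the arrays throughout (correlation of deviations from -0.43 to 0.666). The 0.666 was that of CaCo-2 control array 1 with CaCo-2 TNF array 1, its best match in that group. Both are among the 3 CaCo-2 arrays of highest median. With the replicate number as a block 8 members and 2 pairs of spots were called. The alternative without the 3 arrays and that with 1 weight per cell line (8 members and 3 pairs called, 9.40% and 11.2% of all) were added after seeing the data. In the latter HNRNPA3 25C22 reached adjusted p 0.0504 (limma; from 0.00611 to 0.902 over its alternatives).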
